A study of Arabidopsis thaliana with 6 samples.

Results

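The 49 genes described here encode subunits of the 26S proteasome of Arabidopsis thaliana. They were chosen as a list of loci: 26 genes of the regulatory particle, made up of 11 RPT and 15 RPN genes, and 23 genes of the core particle, made up of 12 PA and 11 PB genes. Each locus was found on 1 probe of the 21500 on the array, which name 21342 loci, so 49 of 49 were measured, each by 1 probe. Together they cover 31 different subunits, of which 18 are encoded by a pair of paralogues in the list. The list names loci and applies no measured value, but it was drawn up with earlier results of these data known.

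The 26S proteasome is the protease of the cytosol and nucleus that destroys proteins marked with ubiquitin chains. Its core particle is a barrel of stacked rings, with alpha subunits (PA in plants) forming the gates and beta subunits (PB) forming the inner chamber, where PBA, PBB and PBE carry the proteolytic sites. The regulatory particle caps the barrel: its RPT ATPases unfold the substrate and open the gate, and its RPN subunits bind ubiquitin, remove it and form the lid. In plants the complex takes part in hormone signalling and in immunity, including the turnover of regulators of the salicylic acid response.

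The plants were 28 days old and were sampled whole without roots. On 4 arrays the plants had received 5 mM salicylic acid (SA), a plant defence hormone, for 2, 5, 10 or 24 h, and were set against untreated plants; the labels name the accession Columbia for these arrays. On 2 arrays plants overexpressing SIBA (SIB1, AT3G56710), under the names CA32F3 and CA32F4 and here called SIB1 plant 1 and SIB1 plant 2, were set against vector control plants. The labels state neither the promoter of the transgene nor whether CA32F3 and CA32F4 are separate transformation events, and they do not say when the untreated plants were harvested. The treated or overexpressing RNA carried Cy5 and the control RNA Cy3 on every array, with no dye swap, so a dye effect particular to a probe and a change cannot be told apart on one array. All values below are log2 ratios of Cy5 over Cy3, so a positive value means higher in the treated or overexpressing plant and 1 is a 2-fold difference. Each SA time is 1 array, so the values at a single time have no replicate check. Where SDs are given with n = 4, they describe the spread between the 4 times, not between repeats of one time.

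SIB1 itself had log2 ratios of 5.25 and 5.59 in SIB1 plants 1 and 2, and of 4.46, 3.71 and 2.89 after 2, 5 and 10 h of SA. Its spot at 24 h was marked as an outlier and left out. The arrays differed in brightness: the median Cy5 signal above background over all probes was 21.5 at 2 h and 206.5 to 404 at the later SA times, and 79 and 84 for the SIB1 plants. The proteasome genes were brighter than most probes, with median Cy5 signals of 165, 672, 1897 and 1746 at 2, 5, 10 and 24 h, against Cy3 signals of 190.5, 612, 587 and 786. No proteasome spot was saturated. One lacked the scanner software's mark for a signal well above background (RPT1b in Cy3 at 10 h), and 1 was left out as an outlier (RPN9b at 24 h, on the array with 1722 such spots against 10 to 25 on the others). All 5 shoot marker probes were well above background in both channels at 5, 10 and 24 h, as were 4 to 6 of 6 root marker probes, so that mark does not separate the organs here. The shoot markers had medians of -0.62, -0.08, -0.90 and -0.57 at 2, 5, 10 and 24 h and of -0.15 and -0.70 in SIB1 plants 1 and 2, and 0 of 5 had an SA mean above 0. The root marker medians lay between -0.29 and 0.02 on the 6 arrays, and 1 of 6 was called lower in the SA fit, against 0.954% of all probes.

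Across the SA series the proteasome genes stood highest at 10 h. At 2 h and 5 h the 49 genes centred near 0, with medians of -0.04 and 0.08 (0.33 and 0.22 where arrays were centred on their median in place of loess). At 10 h the median was 0.72 with 48 of 49 genes above 0 (RPT1b among them at 0.00), and at 24 h it was 0.58 with 38 of 48 above 0. Over all probes the medians on these arrays lay between -0.01 and 0.02, and 47.1, 51.0, 48.6 and 52.9% of probes were above 0 at 2, 5, 10 and 24 h. The median of the shoot markers was lowest at 10 h (-0.90, with 1 of 5 above 0), but they did not move together. GLDP1, PSAD1 and RBCS1A were lowest at 2, 5 and 24 h, and RBCS1A was highest at 10 h, at 0.18. The part of the shoot markers in the result was not tested. The 10 h value exceeded the 5 h value in 49 of 49 genes, against 45.5% of all probes, and exceeded the 2 h value in 45 of the 48 genes measured at all 4 times. Of these 48 genes, 37 had their highest value at 10 h and 11 at 24 h, and none at 2 h or 5 h. Among all probes with 4 values 29.7% were highest at 10 h. These counts of timing were chosen after the values had been seen; 33 to 37 genes were highest at 10 h under the 5 ways of scaling the arrays that were compared, and 48 or 49 of 49 genes were higher at 10 h than at 5 h. The difference between times was not tested, since no time has a second array.

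**Figure D1:**
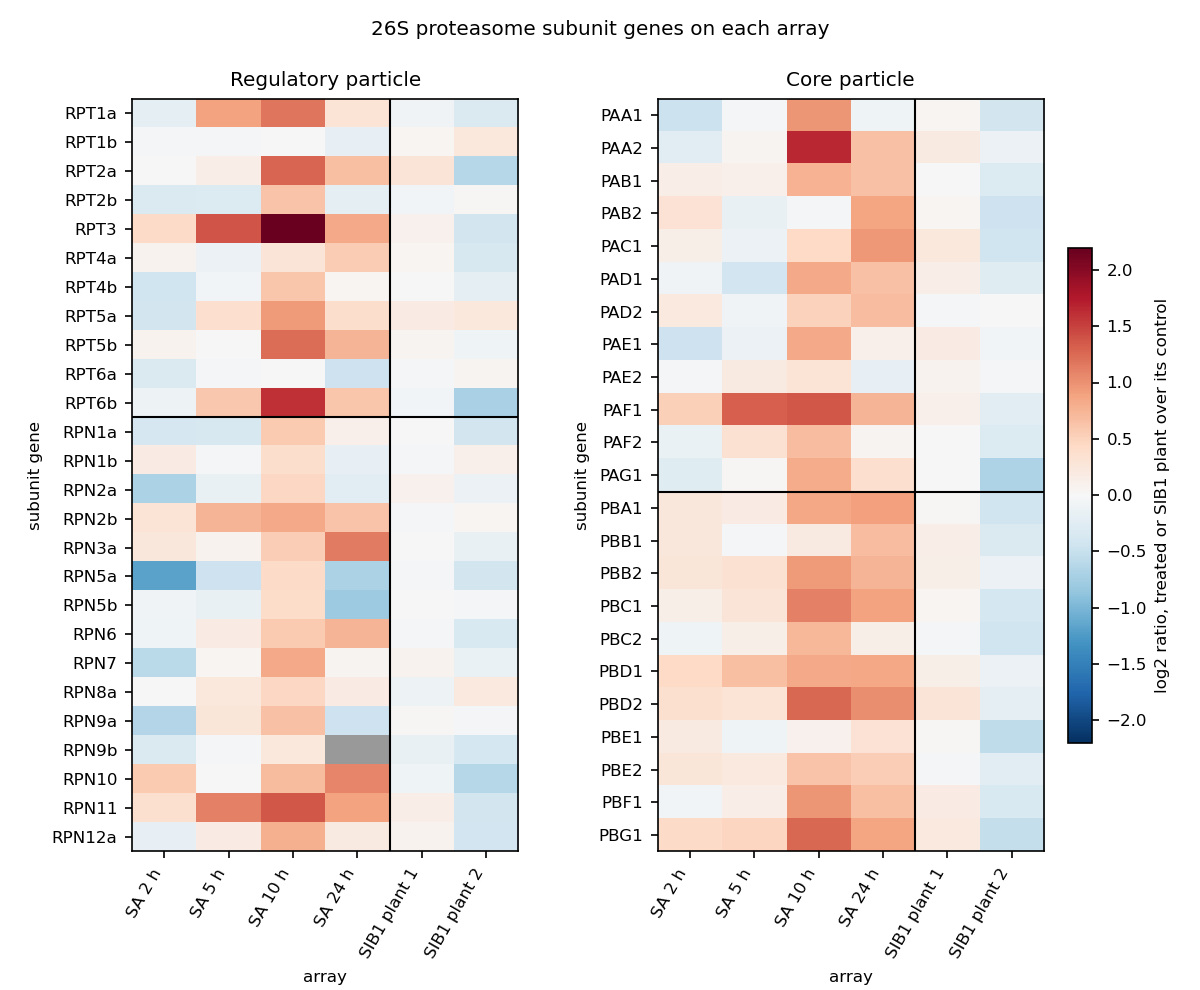
Log2 ratio of each of the 49 proteasome genes on each of the 6 arrays, as colour from blue (lower than control) to red (higher), with the regulatory particle on the left and the core particle on the right; horizontal lines part RPT from RPN and PA from PB, and grey marks the 1 spot left out. The 10 h column is red for nearly all genes of both particles (48 of 49 above 0), and the columns of the SIB1 plants are pale, with values between -0.72 and 0.29.

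At 10 h, 11 of 49 genes were at least 2-fold higher, against 7.3% of all probes (24 of 49 under median centring, against 10.2%), and 31 of 49 were at least 1.5-fold higher, against 14.9%. None was lower by 2-fold or by 1.5-fold, where 4.43% and 9.91% of all probes were. The 11 genes came from both particles, 6 from the regulatory particle and 5 from the core. Counting a subunit once where any of its genes was 1.5-fold higher, 12 of 17 subunits of the regulatory particle and 13 of 14 of the core reached that size. The 5 regulatory subunits that did not were RPN1, RPN3, RPN5, RPN6 and RPN8, although RPN1a and RPN6, both at 0.58, lay just under the log2 threshold of 0.585. This count covers listed genes only. Outside the list, RPN3b, the paralogue of RPN3a, was at 0.64 at 10 h, past that threshold, and RPN8b was at 0.54. In the core the exception was PAC, represented by PAC1 alone at 0.44.

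At 24 h, 24 of 48 genes were at least 1.5-fold higher, against 11.8% of all probes, and 2 (RPN5a and RPN5b) were at least 1.5-fold lower, against 13.3%. At this time 3 of 48 genes (RPN3a, RPN10 and PBD2) were 2-fold higher, which is near the 5.31% of all probes, whereas 17 of 48 were so under median centring, against 7.99%; 0 were 2-fold lower, against 5.63%. At 5 h, 3 of 49 genes (RPT3, RPN11 and PAF1) were 2-fold higher, against 6.09% of all probes, and 7 were 1.5-fold higher, against 11.2%; none was lower by 2-fold or 1.5-fold, against 3.66% and 8.76%. At 2 h, 0 genes were higher by either fold, against 3.84% and 7.41%, while 1 gene (RPN5a) was 2-fold lower and 4 were 1.5-fold lower, against 2.31% and 7.13%. The counts at 2 h and 5 h were thus near or below the share of all probes.

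The core median stood above the regulatory median on each SA array, by most at 24 h, though at 5 h this depended on counting paralogues separately. The core and regulatory medians were 0.14 and -0.11 at 2 h (0.48 and 0.19 under median centring), 0.12 and 0.03 at 5 h (0.22 and 0.17), 0.83 and 0.61 at 10 h (1.05 and 0.90), and 0.66 and 0.20 at 24 h (0.98 and 0.54). The core median exceeded the regulatory median by 0.25, 0.10, 0.21 and 0.46 at these times. The difference kept its sign on the SA arrays under the 5 scalings, where it ranged from 0.25 to 0.45 at 2 h, from 0.05 to 0.11 at 5 h, from 0.12 to 0.22 at 10 h and from 0.44 to 0.50 at 24 h. The particles overlapped throughout: at 24 h, 18 of 23 core genes lay above the regulatory median and 7 of 25 regulatory genes lay above the core median. With paralogues averaged to 1 value per subunit, the order turned at 5 h, to 0.099 in the core and 0.18 in the regulatory particle. In SIB1 plant 1 the core median was also the higher, by 0.08 to 0.16 under the 5 scalings. In SIB1 plant 2 the difference ran from -0.16 to 0.07. With 1 array per time, the difference between the particles was not tested.

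The beta subunit genes were the most even of the 4 subgroups at 24 h. Their 24 h values ran from 0.12 (PBC2) to 1.02 (PBD2) with a median of 0.74, all 11 above 0, whereas the RPN genes ran from -0.80 (RPN5b) to 1.15 (RPN3a) with a median of 0.14 and 9 of 14 above 0. The alpha genes had a 24 h median of 0.64 and the RPT genes one of 0.40. Of the 11 PB genes, 7 were above 0 at all 4 SA times, against 2 of 12 PA genes, 3 of 11 RPT genes, 5 of 14 RPN genes and 19.6% of all probes. After their 10 h value the particles differed in how much remained: the median of the 10 h minus the 24 h value was 0.22 in the core and 0.56 in the regulatory particle. The 24 h value exceeded that at 5 h in 18 of 23 core genes and in 13 of 25 regulatory genes, where 50.4% of all probes did so.

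**Figure D2:**
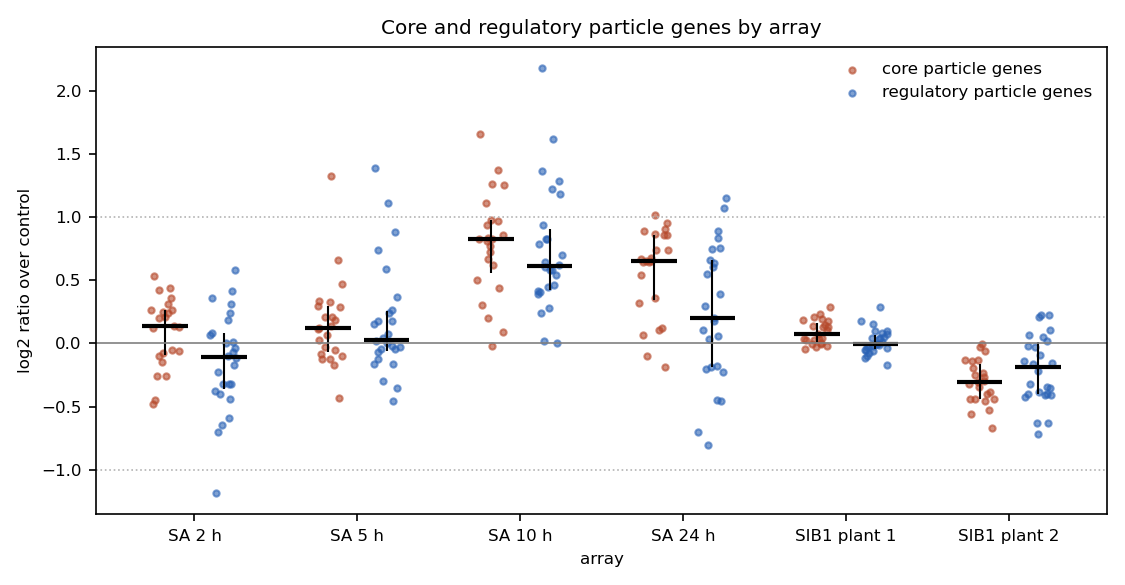
Log2 ratio over control of each gene (points) of the core particle (left, red-brown) and the regulatory particle (right, blue) on each array; thick bars are medians, thin lines run from the lower to the upper quartile over genes, and dotted lines mark 2-fold. Both particles lie above 0 at 10 h, and at 24 h the core median stands at 0.66 against 0.20 in the regulatory particle.

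The spread between the genes on an array was not small beside the shift of the set. At 10 h the SD over the 49 genes was 0.45, against 0.70 over all probes, but the interquartile range was 0.52 in both. At 24 h the SD was 0.49, against 0.65 over all probes, and the interquartile range 0.68, against 0.49. The genes were thus at least as scattered as ordinary probes around a displaced centre, by the interquartile range, and less so by the SD, which the few probes with extreme ratios widen.

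Tested over the 4 SA arrays together, 0 of 49 proteasome genes were called higher or lower at an adjusted p under 0.05 with a mean change of at least 2-fold (limma, Benjamini-Hochberg over 21280 probes), where 2.8% of all probes were called higher and 0.954% lower. This fit asks for a shift shared by the 4 times, and its error is the spread between them. A change that differs between times widens that error, so a gene not called may still have changed at some times. At an unadjusted p under 0.05, 13 of 49 genes were higher and 0 lower, against 14.9% of all probes higher and 25.97% in either direction. By the adjusted p alone 4 genes rose by less than 2-fold, PAF1, PBD1, RPN2b and RPN11, against 5.33% of all probes, and 0 fell, against 2.52%. The mean over the 4 times was above 0 in 40 of 49 genes, against 48.1% of all probes, with a median of 0.27. The count depends on the 2 h array and on the scaling: without the 2 h array PAF1 and RPN11 were called, against 2.93% of all probes, and with each array centred on its median in place of loess 6 genes were called (RPT3, RPN11, PAF1, PBD1, PBD2 and PBG1), against 4.89%. With an offset of 16 and with the scanner software's own ratio 1 gene (PAF1) was called, against 4.22% and 4.34%. The counts of 1, 2 and 4 genes were near those shares of all probes. Without the 5 h array or without the 10 h array, 0 genes were called by either rule, and the same held for all probes (0.0% higher in both fits), so the loss was that of the whole fit. Without the 24 h array 0 genes were called, against 0.632% of all probes higher by either rule. The smallest adjusted p among the 49 genes was 0.12, 0.091 and 0.095 without the 5, 10 and 24 h array.

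Among the RPT ATPases, RPT3 had the largest single ratio and the largest SA mean of all 49 genes. RPT3 (AT5G58290) had log2 ratios of 0.42, 1.39, 2.18 and 0.84 at 2, 5, 10 and 24 h of SA, and of 0.10 and -0.40 in SIB1 plants 1 and 2. Its 10 h value is a 4.52-fold difference, and its mean over the SA times was 1.20 ± 0.76 (SD, n = 4), with an adjusted p of 0.086 in the limma fit, so it did not pass the test over the 4 times. With loess, all 4 SA values lay above both values of the SIB1 plants. The difference between SA and SIB1 plants was 1.36, with an adjusted p of 0.37 in the limma fit of all 6 arrays.

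RPT1, RPT2 and RPT6 are each encoded by 2 genes of which one had the larger ratios after SA. RPT1a (AT1G53750) had values of -0.22, 0.88, 1.18 and 0.30 at 2, 5, 10 and 24 h, against -0.07 and -0.32 in SIB1 plants 1 and 2. RPT1b (AT1G53780) stayed between -0.17 and 0.00 at the 4 SA times and had 0.05 and 0.23 in the SIB1 plants. Its control signal at 10 h was not well above background, so that ratio is uncertain. The SA mean of RPT1b was -0.06, and -0.27 under median centring. RPT2a (AT4G29040), whose loss is known to alter meristem size in Arabidopsis, had 0.00, 0.15, 1.29 and 0.66 after SA, and RPT2b (AT2G20140) had -0.32, -0.29, 0.62 and -0.20. RPT2a was thus the higher of its pair at each SA time, whereas RPT1a was so from 5 h on. In the SIB1 plants RPT2a had 0.29 and -0.63, the highest value of the 49 genes in plant 1 and one of the lowest in plant 2.

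The largest difference between paralogues was in RPT6. RPT6b (AT5G20000) had -0.12, 0.59, 1.61 and 0.61 at 2, 5, 10 and 24 h, and -0.06 and -0.72 in SIB1 plants 1 and 2. RPT6a (AT5G19990) had -0.32, -0.04, 0.02 and -0.45 at the same times, and -0.02 and 0.07 in the SIB1 plants. RPT6a minus RPT6b was -1.60 at 10 h and -1.06 at 24 h, so RPT6b was the higher gene there, whereas in SIB1 plant 2 the difference was 0.78 the other way. The files describe the products of these neighbouring loci as almost identical, and the probe sequences are not used here, so how far each probe reads the other gene was not tested.

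The remaining ATPase genes were highest at 10 h, apart from RPT4a. RPT5a (AT3G05530) had -0.40, 0.37, 0.94 and 0.40 after SA, and RPT5b (AT1G09100) had 0.08, 0.02, 1.22 and 0.74. RPT4b (AT1G45000) had -0.44, -0.07, 0.60 and 0.04. RPT4a (AT5G43010) had 0.07, -0.12, 0.28 and 0.55, and so was the 1 RPT gene with its highest value at 24 h. None of these 4 passed the test over the SA times, with adjusted p between 0.25 and 0.93 in the limma fit.

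Of the RPN genes, RPN11 and RPN2b were the 2 that passed the adjusted p. RPN11 (AT5G23540), the deubiquitylating enzyme of the lid, had log2 ratios of 0.36, 1.11, 1.36 and 0.89 at 2, 5, 10 and 24 h, and of 0.15 and -0.40 in SIB1 plants 1 and 2. Its SA mean was 0.93 ± 0.43 (SD, n = 4), a 1.91-fold rise, with an adjusted p of 0.0495 (limma), at the edge of the threshold. RPN2b (AT1G04810), a gene for a large scaffold subunit of the base, had 0.31, 0.74, 0.83 and 0.63 after SA, and -0.02 and 0.05 in the SIB1 plants. With loess, all 4 of its SA values lay above the SIB1 values, and its mean was 0.63 ± 0.23 (SD, n = 4) with an adjusted p of 0.040 (limma). Its paralogue RPN2a (AT2G32730) had -0.70, -0.16, 0.45 and -0.23, so RPN2b was the higher of the pair at each of the 4 times, with RPN2a minus RPN2b at -1.01, -0.90, -0.38 and -0.86.

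RPN10 and RPN3a had their highest values at 24 h. RPN10 (AT4G38630), a ubiquitin receptor, had 0.58, 0.00, 0.70 and 1.07 at 2, 5, 10 and 24 h, against -0.10 and -0.63 in SIB1 plants 1 and 2; it was the highest of the 49 genes at 2 h and the lowest RPN gene in SIB1 plant 2. RPN3a (AT1G20200), a lid subunit, had 0.24, 0.08, 0.54 and 1.15, the highest 24 h value of the set. RPN6 (AT1G29150), which in yeast ties the lid to the core, had -0.10, 0.18, 0.58 and 0.75. These were the 3 RPN genes of 14 with a 24 h value above that at 10 h.

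Both RPN5 genes and RPN9a were low at 24 h. RPN5a (AT5G09900) had -1.18, -0.46, 0.41 and -0.70 after SA, the lowest of the 49 genes at 2 h and at 5 h, and -0.05 and -0.40 in the SIB1 plants. RPN5b (AT5G64760) had -0.07, -0.16, 0.40 and -0.80, the lowest value of the set at 24 h. RPN9a (AT5G45620) had -0.64, 0.26, 0.64 and -0.45. These lid genes were above 0 at 10 h and below it at 2 h and at 24 h, and their means over the SA times did not pass the test, with adjusted p of 0.35, 0.70 and 0.93 for RPN5a, RPN5b and RPN9a in the limma fit. RPN9b (AT4G19006) had -0.32, -0.02 and 0.24 at 2, 5 and 10 h, the lowest RPN value at 10 h, and its mean rests on those 3 arrays.

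RPN7 (AT4G24820), another lid subunit, had -0.59, 0.04, 0.83 and 0.06 at 2, 5, 10 and 24 h. RPN12a (AT1G64520), known in Arabidopsis for an altered cytokinin response in its mutant, had -0.17, 0.18, 0.78 and 0.20. RPN8a (AT5G05780), the partner of RPN11, had 0.01, 0.24, 0.46 and 0.18, with 0.21 in SIB1 plant 2, the highest RPN value there. RPN1a (AT2G20580), whose product in yeast receives shuttle proteins and ubiquitin, had -0.38, -0.35, 0.58 and 0.11, and RPN1b (AT4G28470) had 0.19, -0.03, 0.39 and -0.19. Each of these 5 genes was highest at 10 h and under 2-fold there.

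**Figure D3:**
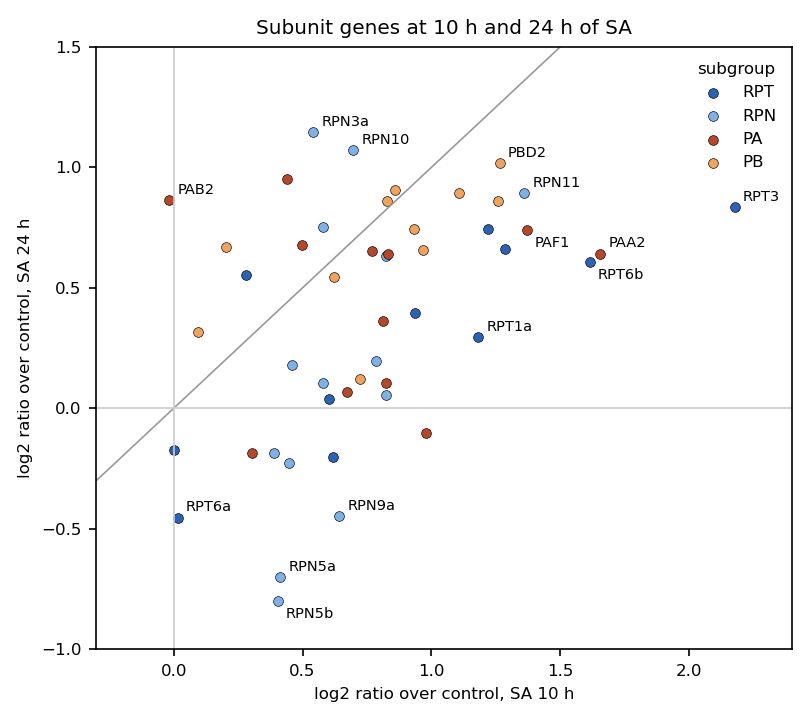
Log2 ratio over control of each proteasome gene after 10 h of SA (horizontal axis) and 24 h of SA (vertical axis), 48 genes coloured by subgroup, with a grey line where both are equal and names on some of the outer genes. Most points lie below the line (37 of 48), PB genes lie all above 0 at 24 h, and RPN5a, RPN5b, RPN9a and RPT6a lie lowest.

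Among the alpha subunits PAF1 passed the adjusted p. PAF1 (AT5G42790) had log2 ratios of 0.53, 1.32, 1.37 and 0.74 at 2, 5, 10 and 24 h, and of 0.10 and -0.25 in SIB1 plants 1 and 2. Its SA mean was 0.99 ± 0.42 (SD, n = 4), a 1.99-fold rise with an adjusted p of 0.042 (limma), just under the 2-fold needed for a call. Its paralogue PAF2 (AT1G47250) had -0.15, 0.34, 0.67 and 0.07, so PAF1 stood above it at each SA time, by 0.67 to 0.99. In the SIB1 plants the 2 genes differed by 0.11 and 0.05.

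PAA2 had the largest 10 h value of the core. PAA2 (AT2G05840) had -0.25, 0.07, 1.66 and 0.64 at 2, 5, 10 and 24 h, and PAA1 (AT5G35590) had -0.48, -0.03, 0.98 and -0.10. PAE1 (AT1G53850) had -0.45, -0.13, 0.83 and 0.11, and PAE2 (AT3G14290) had -0.05, 0.21, 0.30 and -0.18, the lowest core value at 24 h. PAG1 (AT2G27020) had -0.26, 0.03, 0.81 and 0.36, against 0.00 and -0.67 in SIB1 plants 1 and 2, the second of these being the lowest core value of plant 2. All 5 genes were highest at 10 h, and none passed the test over the SA times.

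PAC1, PAB2 and PAD2 were the 3 alpha genes with their highest value at 24 h. PAC1 (AT3G22110) had 0.12, -0.12, 0.44 and 0.95 at 2, 5, 10 and 24 h, with 0.23 in SIB1 plant 1, the highest alpha value there. PAB2 (AT1G79210) had 0.31, -0.17, -0.02 and 0.86, and was the 1 gene of the 49 that was not above 0 at 10 h. PAB1 (AT1G16470) had 0.14, 0.12, 0.77 and 0.65, although the files describe its product and that of PAB2 as nearly identical. PAD1 (AT3G51260) had -0.07, -0.43, 0.83 and 0.64, and PAD2 (AT5G66140) had 0.21, -0.08, 0.50 and 0.68. The PAD genes differed least of the 18 pairs, by a mean of 0.25 over the SA times.

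PBD1 had the smallest adjusted p of the 49 genes. PBD1 (AT3G22630) had log2 ratios of 0.44, 0.66, 0.83 and 0.86 at 2, 5, 10 and 24 h of SA, and of 0.13 and -0.14 in SIB1 plants 1 and 2. Its SA mean was 0.70 ± 0.19 (SD, n = 4), a 1.62-fold rise with an adjusted p of 0.028 (limma). PBD2 (AT4G14800) had 0.36, 0.30, 1.26 and 1.02 after SA, 2-fold higher at 10 h and at 24 h, with an SA mean of 0.73 ± 0.48 (SD, n = 4) and an adjusted p of 0.099 (limma). PBG1 (AT1G56450) had 0.42, 0.47, 1.26 and 0.86, with a mean of 0.75 ± 0.39 (SD, n = 4) and an adjusted p of 0.065 (limma). With loess, all SA values of these 3 genes lay above their values in both SIB1 plants. Those were 0.29 and -0.19 for PBD2 and 0.21 and -0.53 for PBG1. The margin of PBD2 was slight, with 0.295 at 5 h against 0.288 in plant 1. Under median centring the median of the PB genes was 0.69 in plant 1 and 0.33 at 5 h, and this order was not examined there.

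The genes of the proteolytic sites differed among themselves. PBA1 (AT4G31300), with the caspase-like site, had 0.25, 0.18, 0.86 and 0.91 at 2, 5, 10 and 24 h. PBB1 (AT3G27430) and PBB2 (AT5G40580) encode the trypsin-like subunit; PBB1 had 0.24, -0.05, 0.20 and 0.67. PBB2 had 0.27, 0.33, 0.93 and 0.74. PBE1 (AT1G13060) and PBE2 (AT3G26340) encode the chymotrypsin-like subunit. PBE1, with the smallest 10 h value of the PB genes, had 0.20, -0.10, 0.09 and 0.32, with -0.56 in SIB1 plant 2, and PBE2 had 0.27, 0.21, 0.62 and 0.54. None of the 5 passed the adjusted p over the SA times (0.078 to 0.46, limma).

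The other beta genes followed the 10 h pattern. PBC1 (AT1G21720) had 0.13, 0.29, 1.11 and 0.89 at 2, 5, 10 and 24 h, and PBC2 (AT1G77440) had -0.10, 0.12, 0.72 and 0.12, the lowest PB value at 2 h and at 24 h. PBF1 (AT3G60820) had -0.06, 0.14, 0.97 and 0.66. The PBC pair parted most at 24 h, where PBC1 stood 0.77 above PBC2.

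Over the 18 paralogue pairs, 6 had both genes at least 1.5-fold higher at 10 h, 10 had 1 such gene and 2 had none (RPN1 and RPN5). In 8 pairs the same gene was the higher one at all 4 SA times. The 5 pairs that differed most, by their mean absolute difference over the SA times, were RPT6 (0.87), RPN2 (0.79), PAF (0.76), RPT1 (0.69) and RPT2 (0.57), and the 2 that differed least were PBD (0.26) and PAD (0.25). The RPT1 difference rests in part on a dim spot, since RPT1b was not well above background in Cy3 at 10 h. The difference within a pair was not tested.

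**Figure D4:**
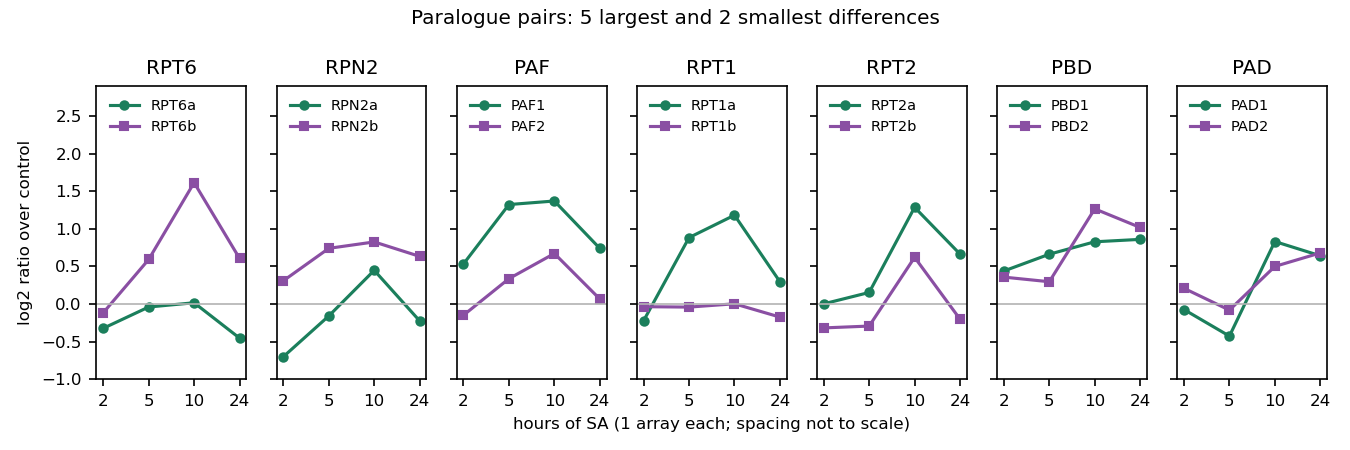
Log2 ratio over control of both genes of a paralogue pair at 2, 5, 10 and 24 h of SA, 1 array each, for the 5 pairs with the largest and the 2 with the smallest mean absolute difference over these arrays. RPT6a minus RPT6b is -1.60 at 10 h, PAF1 stays above PAF2 at each time, and the PBD and PAD genes cross.

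The proteasome genes lay near 0 in SIB1 plant 1 and mostly below 0 in SIB1 plant 2, where median centring turned the direction. In plant 1 the core and regulatory medians were 0.08 and -0.01 with an SD over the 49 genes of 0.10; in plant 2 they were -0.30 and -0.19 with an SD of 0.23. In plant 1, 30 of 49 genes were above 0, whereas in plant 2 this held for 7 of 49 and for none of the 23 core genes, against 52.1% and 50.1% of all probes. Plant 2 was the lower of the 2 in 41 of 49 genes, against 50.3% of all probes, and in 22 of 23 core genes. Both values were below 0 in 14 genes, against 30.2% of all probes, and both above 0 in 2 genes, RPT1b and RPT5a, against 32.4%.

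No proteasome gene was 2-fold or 1.5-fold changed in plant 1, where 0.191% and 0.833% of all probes were higher and 0.0838% and 0.386% lower by these folds. In plant 2, 0 genes were 2-fold higher or lower, against 1.88% and 2.26%; 0 were 1.5-fold higher, against 5.58%, and 4 were 1.5-fold lower, against 5.99%. These 4 were RPT6b at -0.72, PAG1 at -0.67, and RPT2a and RPN10, both at -0.63. The direction in the SIB1 plants rests on the scaling: with arrays centred on their median in place of loess, the core and regulatory medians were 0.66 and 0.54 in plant 1 and 0.33 and 0.27 in plant 2, and 43 of 49 genes were above 0 in plant 2.

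The fit of the 2 SIB1 arrays called 0 of 49 genes, against 0.0% of all probes, with a smallest adjusted p of 0.66 in limma; 1 gene had an unadjusted p under 0.05, and it was higher, against 2.88% of all probes. Under median centring 15 of 49 genes had an adjusted p under 0.05, all higher, against 16.8% of all probes, and 0 reached the call with its 2-fold limit, against 1.89%. In that fit 12889 of 21482 probes had an unadjusted p under 0.05. SA minus SIB1 over all 6 arrays also called 0 genes, against 0.0605% of all probes higher and 0.00466% lower, although 42 of 49 differences were above 0, against 48.7% of all probes, with a median of 0.45. At an unadjusted p under 0.05, 10 genes were higher, against 7.69% of all probes. This shift of the set was not seen under median centring, where 31 of 49 differences were above 0, against 57.0% of all probes, the median was 0.13 for the genes and for all probes alike, and 5 genes were higher at an unadjusted p under 0.05, against 24.1%. The smallest adjusted p was 0.19, for PBD1 in limma. A slope on log2 of hours over the SA times called 0 genes, against 0.0% of all probes, with 44 of 49 slopes above 0, against 49.6% of all probes, and 1 gene higher at an unadjusted p under 0.05, against 2.42%.

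**Figure D5:**
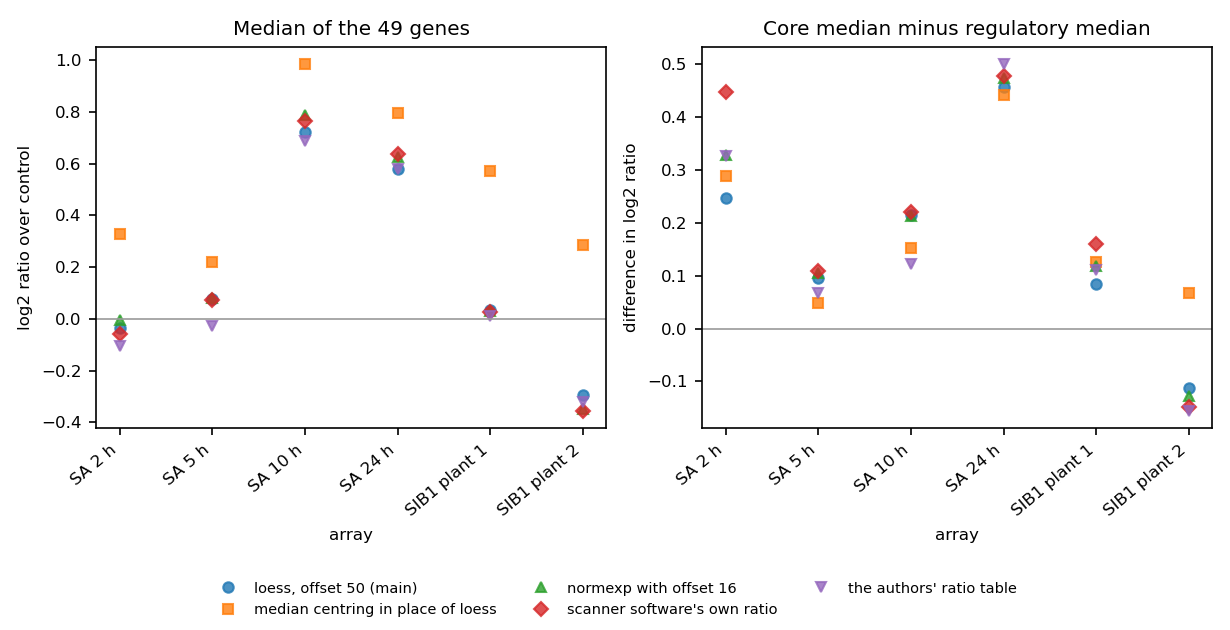
Median log2 ratio over control of the 49 genes (left) and the core median minus the regulatory median (right) on each array under 5 ways of scaling. The 10 h median is above 0 under each (0.69 to 0.98), whereas in SIB1 plant 2 it runs from -0.36 to 0.29, and the core minus regulatory difference stays above 0 on the 4 SA arrays.

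Proteasome genes outside the list and genes that work with the complex were read from lists of known members. Of 7 further subunit and activator genes, 0 were called in the SA fit, where 2.8% of all probes were called higher and 0.954% lower. In lists this short a count of 0 or 1 says little beside those shares. The median of these 7 genes at 10 h was 0.54. PA200 (AT3G13330), a single-chain activator that caps the core in place of the regulatory particle, had 0.00, 1.28, 2.05 and 0.37 at 2, 5, 10 and 24 h, with an adjusted p of 0.21 (limma). RPN3b (AT1G75990), the paralogue of RPN3a, had 0.16, 0.78, 0.64 and 0.45. Of 6 assembly factor genes 0 were called, against the same shares, with medians of 0.67 at 10 h and 0.62 at 24 h. UMP1b (AT5G38650), a chaperone of the forming core, had 0.34, 0.71, 1.01 and 0.72 and rose by 0.70 on average with an adjusted p of 0.042 (limma), below the 2-fold limit. HSM3 (AT3G15180) had -0.17, 0.22, 1.24 and -0.56. PTRE1 (AT3G53970), with the largest SA mean of this list, had 0.41, 0.34, 0.80 and 1.26, and UMP1a (AT1G67250) had 0.19, 0.40, 0.53 and 0.80. PTRE1 and UMP1a were thus highest at 24 h, not at 10 h.

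NAC53 and NAC78 are transcription factors known to raise proteasome genes under proteasome stress in Arabidopsis. NAC53 (AT3G10500) had 0.92, 0.79, 1.59 and 0.63 at 2, 5, 10 and 24 h of SA, and 0.37 and 0.73 in SIB1 plants 1 and 2. Its SA mean was 0.98 ± 0.42 (SD, n = 4), with an adjusted p of 0.044 (limma), or 0.086 without the 2 h array, and below the 2-fold limit. NAC78 (AT5G04410) had -0.16, 0.38 and 0.91 at 2, 5 and 10 h and was left out at 24 h as an outlier, and it had -0.02 and 0.54 in the SIB1 plants. Both genes were thus highest at 10 h among their SA values, as most subunit genes were, and both were higher in SIB1 plant 2 than in plant 1, whereas 41 of 49 subunit genes were lower in plant 2.

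Of 11 genes for ubiquitin and its activating enzymes 1 was called higher and 0 lower in the SA fit, against 2.8% and 0.954% of all probes. That gene was UBQ11 (AT4G05050), with 1.71, 1.40, 1.06 and 0.48 at 2, 5, 10 and 24 h and an adjusted p of 0.046 (limma), or 0.077 without the 2 h array. UBQ10 (AT4G05320) had 2.27, 1.29, 1.14 and 0.16. Both polyubiquitin genes were highest at 2 h, when 24 of 49 proteasome genes were above 0. UBQ3 (AT5G03240) had 1.89, 0.49, 2.43 and 0.86, and UBQ14 (AT4G02890) had 0.78, 1.12, 0.68 and 1.12, with an adjusted p of 0.023 (limma) and below the 2-fold limit. Polyubiquitin genes share their repeats, and how far the probe of one reads another was not tested.

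Of 14 genes for delivery of substrates and removal of ubiquitin 0 were called in the SA fit, against 2.8% of all probes higher and 0.954% lower. CDC48B (AT3G53230), an ATPase that extracts ubiquitylated proteins, had 0.44, 1.58, 2.33 and 1.89 at 2, 5, 10 and 24 h, with an adjusted p of 0.058 (limma). CDC48A (AT3G09840) had 0.04, 0.51, 1.501 and 1.09, and UBP6 (AT1G51710), a deubiquitylating enzyme that docks on the regulatory particle, had 0.26, 1.297, 1.26 and 0.65. Of 10 genes of the COP9 signalosome, a complex built on the same plan as the proteasome lid, 0 were called, against the same shares. Their medians were -0.22, 0.12, 0.51 and -0.04 at 2, 5, 10 and 24 h, beside RPN medians of -0.10, 0.04, 0.58 and 0.14. CSN2 (AT2G26990) had the widest course, with -0.78, 0.18, 1.19 and -1.74, and CSN8 (AT4G14110) had -0.15, 0.74, 1.12 and 0.25. CSN6A (AT5G56280) had -0.39, -0.17, 0.85 and -0.86. CSN5A (AT1G22920) went the other way, with 0.40, 0.41, 0.07 and 0.61, so it was lowest at 10 h. So was CSN7 (AT1G02090), with 0.15, 0.13, -0.06 and 0.32. At 10 h 8 of the 10 genes were above 0.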

How the data were processed

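Ratios were recomputed from 6 two-colour Agilent arrays. Per the file headers, the deposited files hold the mean spot intensity and the local background intensity of each channel, outlier, saturation and background flags, and the log10 ratio of Cy5 to Cy3 from the scanner software, whose version was not given in the sources used here. A deposited table of the series holds the authors' linear ratio per probe, of unstated normalization, whose log correlated with the recomputed log2 ratios at 0.946 to 0.993. Per the labels, control RNA carried Cy3.

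Background was corrected with normexp (offset 50) and arrays were normalized by loess, in limma 3.58.1 and R 4.3.3; control spots and spots marked as outliers were left out. Mean log2 ratios were tested with lmFit and eBayes over all probes marked as well above background in a channel on 2 arrays, with Benjamini-Hochberg adjusted p; genes past 0.05 with a mean of 2-fold or more were called, and for the slope on log2 hours the p alone decided. Such a test of a ratio cannot separate variation among control plants from variation among treated or overexpressing plants. The labels do not say that the 2 overexpressing plants were grown separately. The p-values thus measure the spread between these arrays. The number of arrays limits the precision.

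The members, lists, tests and alternatives were chosen with earlier results of these data known. Named were the 6 highest and 6 lowest members by SA mean, members past a fold on several arrays, the extremes of each subgroup on each array, the paralogue pairs that differed most and least, and up to 4 genes of each related list. Other members and CSN7 were added after their values were seen. Subunit and list names were written from general knowledge and compared with the files' descriptions and a RefSeq gene table (TAIR10.1, names only); 4 list loci without such a description were dropped, and the paralogue letters of some genes are the usual ones and not the files'. Alternatives were median centring, an offset of 16, the scanner's ratio, the authors' ratio, no filter, a prior following brightness, leaving out arrays, a fold of 1.5, leaving out dim or saturated spots and averaging paralogues. A motif search of promoters was planned and not run, since sequences are not used here.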

Additional observations from a re-analysis of the deposited data

Results flagged for a closer look

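The values below turned from lower to higher than the control between the 2 h and 10 h arrays; each time is 1 array, so the difference between times was not tested, and the limit of 1.5-fold in both directions that picked the 2 genes was set after the values had been seen. The median of the regulatory particle was -0.11 at 2 h and 0.61 at 10 h, and under median centring it was 0.19 at 2 h. RPN7 was at -0.59 at 2 h and at 0.83 at 10 h. RPN9a was at -0.64 at 2 h and at 0.64 at 10 h. The 2 h array was the dimmest, with a median Cy5 signal above background of 21.5 over all probes and of 165 over the proteasome genes, and the part of its brightness in these values was not tested.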

How the results depend on the processing

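The SA fit called 0 of the 49 genes. It called 6 under median centring, 1 (PAF1) with an offset of 16, 1 (PAF1) with the scanner's ratio and 4 by the adjusted p alone, and 0 to 2 when 1 SA array was left out. All probes were called higher at 2.8% in the SA fit, 4.89%, 4.22% and 4.34% under the first 3 of these, and 0.0% without the 5 h or the 10 h array, where the whole fit lost its calls. Median centring in place of loess moved the regulatory median to 0.19, 0.17, 0.90 and 0.54 at 2, 5, 10 and 24 h, to 0.54 in SIB1 plant 1 and to 0.27 in plant 2, and the core median to 0.48, 1.05 and 0.98 at 2, 10 and 24 h and to 0.66 and 0.33 in the plants. It gave 4 genes 2-fold higher and 0 lower at 2 h, 24 higher at 10 h and 17 higher at 24 h, where 7.05, 10.2 and 7.99% of all probes were higher. At 2 h 0.763% of all probes were lower. The cause of these shifts was not tested. With the authors' ratio the regulatory median was -0.28 at 2 h and -0.045 at 5 h, and the core median 0.022 at 5 h and 0.70 at 10 h. The regulatory median was -0.26 at 2 h with the scanner's ratio. With 1 value per subunit it was 0.18 at 5 h, above the core median of 0.099. The scanner's ratio gave 2 genes 2-fold lower at 2 h, against 9.80% of all probes, and 1 higher in SIB1 plant 2, against 6.68%. At a fold of 1.5 the counts were 4 lower at 2 h, 7 higher at 5 h, 31 higher at 10 h, 24 higher and 2 lower at 24 h, and 4 lower in SIB1 plant 2. The shares of all probes were 7.13, 11.2, 14.9, 11.8, 13.3 and 5.99% in the same order. The median of the members' SIB1 means was -0.10, and -0.29 from plant 2 and 0.035 from plant 1 alone. Small SA means changed sign: RPN2a gave 0.020 without the 2 h array and 0.13 under median centring, RPN5b gave -0.34 to 0.057 and RPN2a -0.36 to 0.020 over the fits without 1 array, and RPT2b gave -0.27 to 0.041 there (0.0022 without 24 h, 0.033 without 5 h) and 0.24 under centring. Of the other comparisons of a count or median with its alternative, 137 kept their direction and moved by less than 0.1 log2 units for medians, a limit set after seeing the data, or by less than 1.5 times for counts. No paired analysis was possible because each SA time has 1 array and the labels give no replicate numbers; those used here only name arrays. With 1 array per SA time, no difference at a single time could be tested.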
